A study of Homo sapiens with 16 samples.

Results

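The cancer-testis antigen families examined here are the MAGEA, MAGEB, MAGEC, GAGE, PAGE, XAGE, SSX, CTAG, CT45A and CT47A genes. Members were taken by the letters with which the gene symbols begin, with antisense genes left out. No measured value entered this rule, although it was chosen with earlier results of these data known. The rule found 101 of the 35993 genes in the table. Of these, 86 were members of the 10 families, and 15 (14 CTAGE genes and SSX2IP) matched by their letters only and were kept apart.

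RNA was sequenced from TCCSUP, RT112, J82 and 253J, which are 4 established lines of human bladder cancer cells, each labelled wild type. Every line was given either CM-1758, an inhibitor of histone deacetylases, or the DMSO vehicle alone for 48 h, with CM-1758 at the concentration found to inhibit that line by 50%. Each of the 8 groups held 2 libraries, described by the study as independent experiments, so every p-value measures only the spread between such pairs. 253J, J82 and RT112 were grown in DMEM and TCCSUP in EMEM, both with serum, and so the medium cannot be told apart from the line in any comparison of TCCSUP with the others. The dose also belonged to the line. Total counts ran from 22506431 to 32537104 per library, so that after scaling by TMM factors 1 count was worth 0.0327 to 0.0396 CPM (counts per 1000000).

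Cancer-testis antigens are proteins whose genes are switched on in germ cells of the testis and kept silent in nearly all other adult tissues, largely by DNA methylation of their promoters and by histone-based repression. Many tumours express some of them, and because the testis shows few antigens to T cells, their peptides can be recognised as foreign. MAGE proteins carry a MAGE homology domain and bind RING-type ubiquitin ligases, GAGE, PAGE and XAGE proteins are small, acidic and largely disordered, and SSX proteins are nuclear repressors known from their fusion with SS18 in synovial sarcoma.

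The 86 members were CT45A1, CT45A5, CT45A8, CT45A9 and CT45A10; CT47A1 to CT47A12; CTAG1A, CTAG1B and CTAG2; and GAGE1, GAGE2A, GAGE2B, GAGE2C, GAGE2D, GAGE2E, GAGE10, GAGE12C, GAGE12D, GAGE12E, GAGE12F, GAGE12G, GAGE12H, GAGE12I, GAGE12J and GAGE13. The MAGE members were MAGEA1, MAGEA2, MAGEA2B, MAGEA3, MAGEA4, MAGEA5, MAGEA6, MAGEA7P, MAGEA8, MAGEA9, MAGEA9B, MAGEA10, MAGEA10-MAGEA5 and MAGEA11, then MAGEB1, MAGEB2, MAGEB3, MAGEB4, MAGEB5, MAGEB6, MAGEB6B, MAGEB10, MAGEB16, MAGEB17 and MAGEB18, and MAGEC1, MAGEC2 and MAGEC3. The others were PAGE1, PAGE2, PAGE2B, PAGE3, PAGE4 and PAGE5, SSX1, SSX2, SSX2B, SSX3, SSX4, SSX4B, SSX5, SSX6P, SSX7, SSX8P and SSX9P, and XAGE1A, XAGE1B, XAGE2, XAGE3 and XAGE5. All 81 members matched to RefSeq lie on the X chromosome, and the 5 without a match were GAGE2B, GAGE2C, GAGE2D, GAGE2E and GAGE12I. RefSeq lists 5 members as pseudogenes.

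Many of these genes are near-identical copies, and the counting had to split reads among them. Of the 82 members with a GENCODE transcript, the 45 copies shared a median of 95.7% of their 100-base windows with another gene, and 39 of them shared over 50%. The 37 other members shared a median of 0%, although 5 of them (CTAG2, MAGEA5, MAGEA10, MAGEA10-MAGEA5 and SSX7) shared over 10%. The value of a single copy is therefore uncertain, and the counts of copies were summed into 11 copy groups (all GAGE genes, all CT45A genes, all CT47A genes, MAGEA2/2B, MAGEA3/6, MAGEA9/9B, XAGE1A/1B, PAGE2/2B, CTAG1A/1B, SSX2/2B and SSX4/4B). This left 48 genes or copy groups. The CT45A sum may still share reads with copies not analysed here, since over 60% of the windows of each of its 5 genes also occurred outside the group.

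In the control cells, the families were close to silent in 3 lines and broadly expressed in TCCSUP. Of the 86 members, 69 had 0 counts in both control libraries of 253J, 75 in J82 and 71 in RT112, against 26 in TCCSUP. Over the whole table, genes with counts ran from 19532 to 20400 per control library. Members with at least 10 counts in both control libraries were absent from 253J and J82, and they numbered 3 in RT112 against 18 in TCCSUP. Summed over all families, the TCCSUP control libraries held 234 and 274 CPM. Those of 253J held 1.05 and 1.38 CPM, those of J82 1.71 and 1.38 CPM, and those of RT112 2.98 and 2.71 CPM. Both TCCSUP libraries lay far above the other 6, which ran from 1.05 to 2.98 CPM.

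With CM-1758, more members were detected in all 4 lines. Members with 0 counts in both libraries fell in number to 5 in TCCSUP, 18 in RT112, 35 in J82 and 22 in 253J, and those with at least 10 counts in both rose to 66, 23, 8 and 14. Genes with counts also rose in number over the whole table. Per library they went from 20312 and 20400 to 24675 and 24905 in TCCSUP and from 20108 and 20316 to 23080 and 23193 in RT112. In J82 they went from 20286 and 19532 to 22232 and 22337, and in 253J from 20008 and 20352 to 22948 and 23586. The summed level reached 27.0 and 28.2 CPM in 253J, a ratio of means of 22.7. In J82 it reached 21.1 and 17.9 CPM (ratio 12.6), in RT112 53.0 and 44.1 CPM (ratio 17.1), and in TCCSUP 490 and 525 CPM (ratio 2). The treated and control libraries of a line did not overlap in any of the 4 lines. The largest ratios stood in lines whose control sum was low, while treated TCCSUP cells had the highest sum of all groups. In bulk libraries, more cells expressing a gene and more RNA per cell cannot be told apart.

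**Figure D1:**
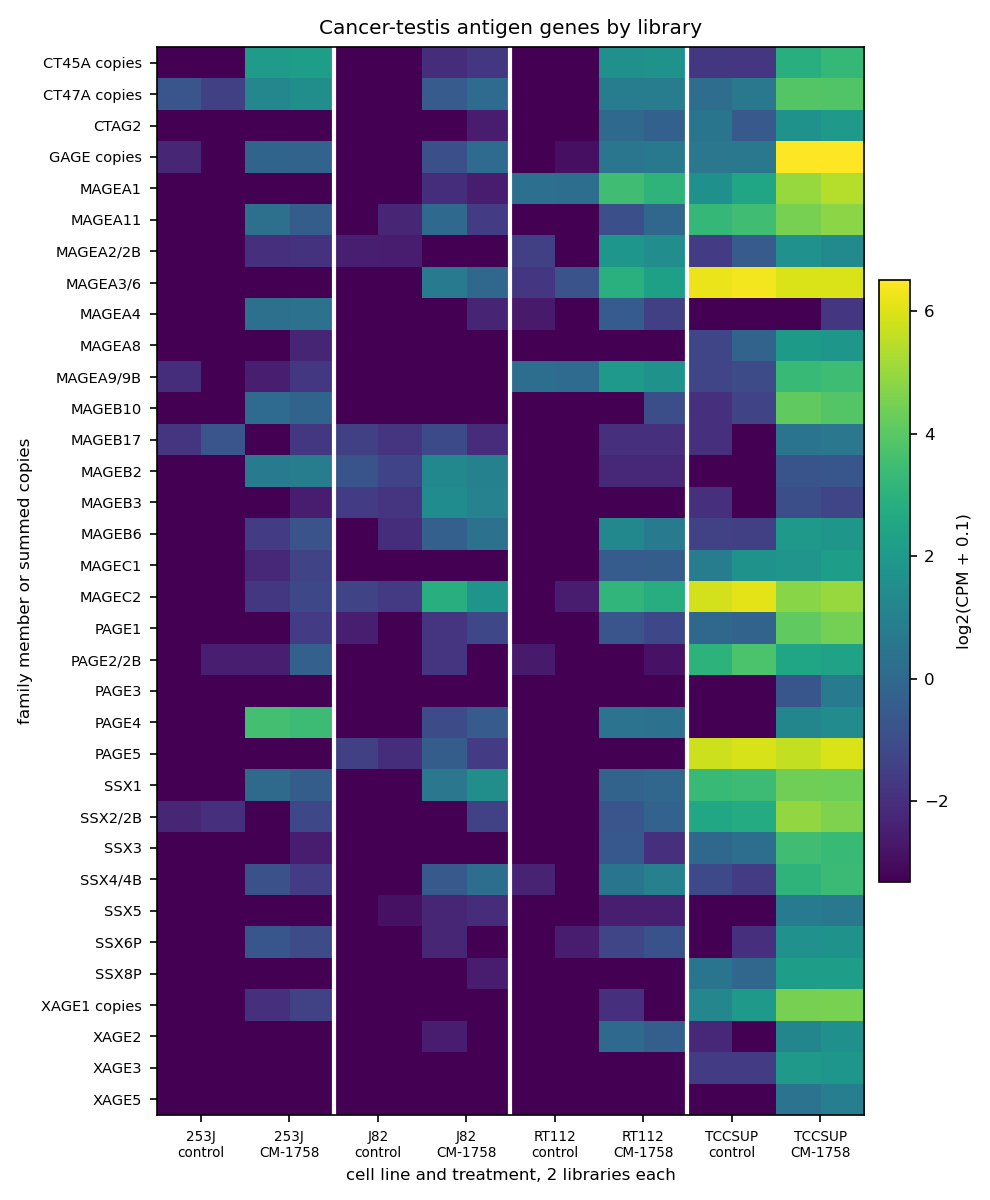
Level of the 34 genes or copy groups that reached a mean of 1 CPM in at least 1 group, as log2(CPM + 0.1), by library (columns, 2 per group) and gene (rows). The control columns of 253J, J82 and RT112 are dark for most genes, those of TCCSUP are not, and the treated columns are brighter in every line.

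**Figure D2:**
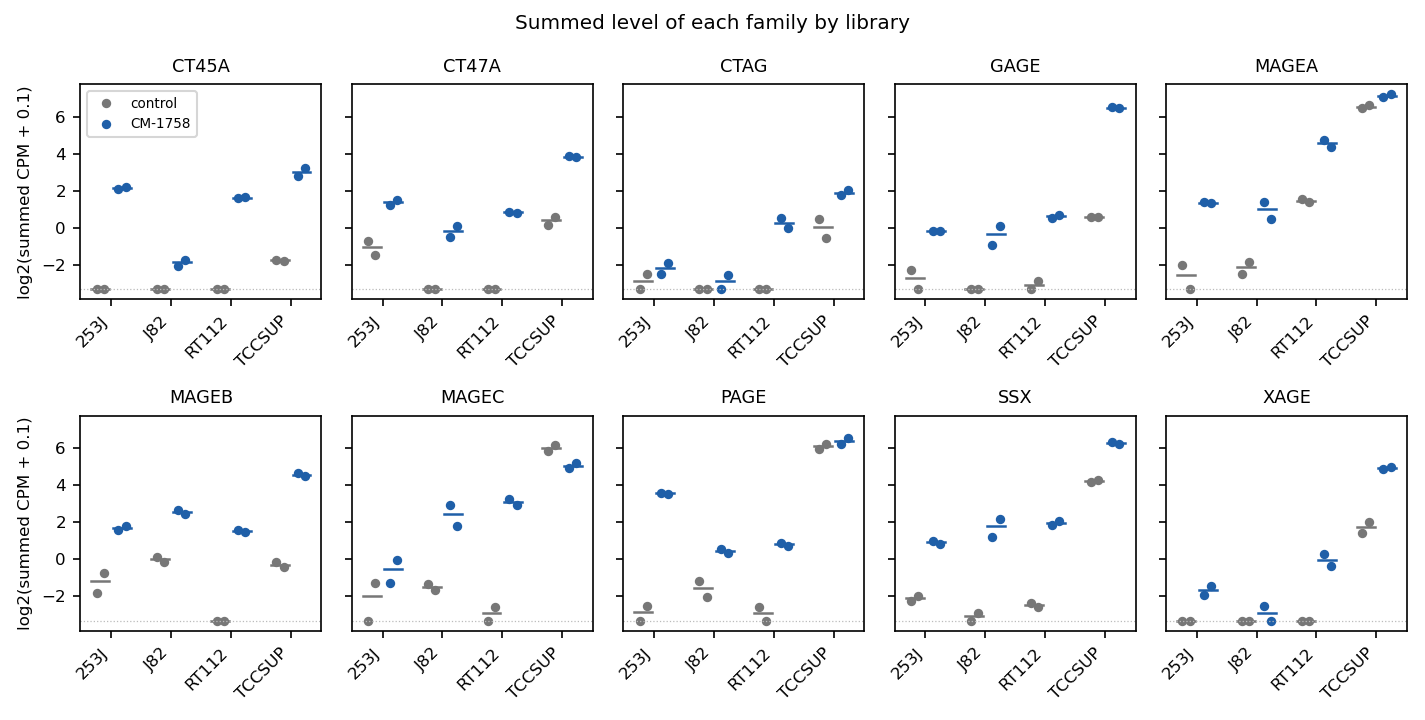
Summed level of each of the 10 families, as log2(summed CPM + 0.1), with a point for each library and a bar for the mean of the 2 libraries of a group. The treated points stand above the control points in most panels, with MAGEC in TCCSUP as an exception, where the control sum is higher.

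A gene was called higher or lower where the fitted log2 fold change passed 2 in size and the adjusted p of edgeR's quasi-likelihood test was under 0.01, the limits the study used for its lists. Of the 86 members, 69 passed the filter on low counts and could be called. In 253J, 18 members (20.9% of 86) were called higher, beside 9.43% of all tested genes. In J82 the count was 14 (16.3%) beside 8.81%, in RT112 30 (34.9%) beside 11.4%, and in TCCSUP 54 (62.8%) beside 14.2%. In this fit the members' share stood above that of all genes in each line, by the most in TCCSUP, although the filter keeps a silent gene only where some group expresses it. No member was called lower in any line by edgeR, while 3.5%, 1.24%, 1.39% and 3.31% of all tested genes were called lower in 253J, J82, RT112 and TCCSUP. An unadjusted p under 0.05 toward a lower level was seen for 0, 0, 0 and 2 members, and DESeq2 called 0 lower in every line.

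Leaving out 1 library moved several of these counts. In 253J the 18 calls became 8 without control replicate 2, 6 without control replicate 3 and 10 without CM-1758 replicate 3. In J82 the 14 became 9 without control replicate 1, 8 without control replicate 3 and 9 without CM-1758 replicate 3. In RT112 the 30 became 19 without control replicate 2. None of these fits called a member lower. Other fits moved the count in J82 to 5 (DESeq2) and 6 (edgeR) when that line was fitted alone. Fewer members were called in 253J with the replicate number as a block. In that fit the 253J effect rests on the control and treated libraries of replicate 3 alone.

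With copies summed, 14 of the 48 genes or copy groups (29.2%) were called higher in 253J beside 9.42% of all tested features, 11 (22.9%) in J82 beside 8.8%, 18 (37.5%) in RT112 beside 11.4%, and 26 (54.2%) in TCCSUP beside 14.1%. None was called lower by edgeR, beside 3.51%, 1.25%, 1.39% and 3.31% of all features, with an unadjusted p under 0.05 for 0, 0, 0 and 1 of them and 0 calls by DESeq2. The 14 calls in 253J became 7 without control replicate 2, 7 without control replicate 3 and 9 without CM-1758 replicate 3, and the 26 in TCCSUP became 17 without CM-1758 replicate 1. DESeq2 over all lines called 15 in TCCSUP. The replicate number as a block, where the 253J effect rests on replicate 3 alone, left fewer calls in 253J. The CT45A, CT47A and GAGE copies, MAGEB6, PAGE4 and SSX4/4B were called higher in all 4 lines, and MAGEB2, MAGEC2 and SSX1 in 3. Of those called in all 4 lines, only the CT47A and GAGE copies kept every call in every alternative run. Some calls rest on fitted values against 0 control counts, with lower bounds under the fold limit. These were CT45A in J82 (1.55-fold) and MAGEB6 (3.18-fold), SSX4/4B (3.01-fold) and MAGEC2 (2.4-fold) in 253J. A further 11 were called in 2 lines and 14 in 1 line. The other 14 were called in no line, among them PAGE5 and PAGE2/2B, which TCCSUP cells expressed already.

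**Figure D3:**
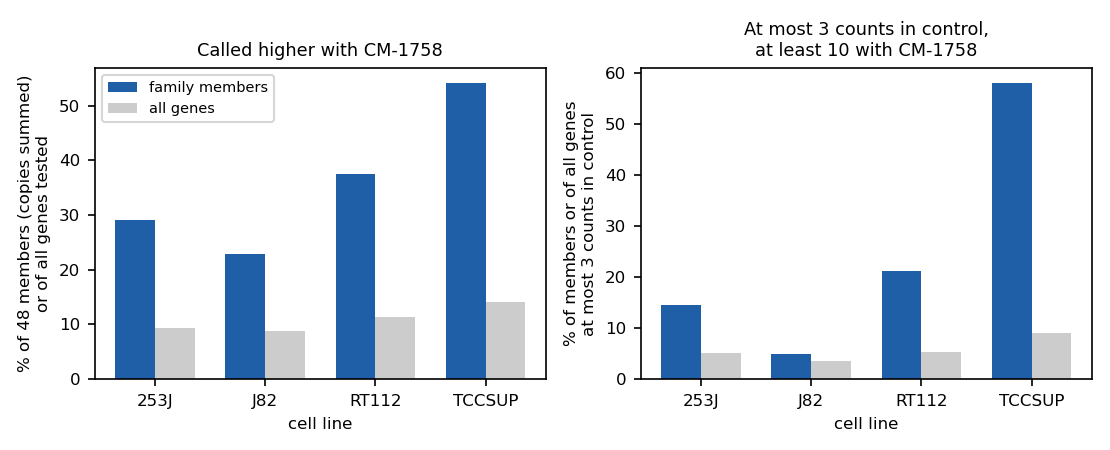
Percent of family members (blue bars) and of all genes (grey bars) by cell line. The first panel gives the share of the 48 genes or copy groups called higher with CM-1758 and the other the share of the members at or under 3 control counts that reached 10 with CM-1758, and in both the gap is widest in TCCSUP (54.2% against 14.1%, and 58.1% against 9.11%). Copies were not summed in the other panel, so copies counted there can belong to groups with over 3 summed control counts.

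The same was described without a test or a filter, by counting members that went from at most 3 counts in both control libraries to at least 10 counts in both treated libraries. In 253J, 12 of the 82 members at or under 3 control counts did so (14.6%), beside 5.02% of all such genes. In J82 it was 4 of 80 (5%) beside 3.53%, a share near that of all genes, and 7 members without CM-1758 replicate 1. In RT112 it was 17 of 80 (21.2%) beside 5.37%, and in TCCSUP 25 of 43 (58.1%) beside 9.11%. Copies were counted singly here, so a copy at or under 3 control counts need not belong to a silent group. In TCCSUP control the GAGE copies summed to 35 and 37 counts, CT47A to 26 and 37 and CT45A to 5 and 5. How far this raised the TCCSUP share was not computed.

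The GAGE copies showed one of the widest changes. GAGE genes stand in a tandem array on the X chromosome. In TCCSUP their summed counts were 35 and 37 in control and 2436 and 2288 with CM-1758, or 1.39 and 1.42 CPM against 91.2 and 90.1 CPM. This was a log2 fold change of 6.01 (SE 0.31, adjusted p = 7.41e-09). The 3 other lines had few GAGE reads in control and stayed well below TCCSUP with CM-1758. The counts were 3 and 0 against 20 and 23 in 253J, a ratio of 14 (95% counting interval 4.49 to 70.7). In J82 they were 0 and 0 against 12 and 29, at least 6.33-fold higher, a bound set against 3 counts per library. In RT112 they were 0 and 1 against 35 and 39, a ratio of 85.9 (14.9 to 3440). Control and treated libraries were apart in each line, and the 4 calls held in every alternative run. Intervals and bounds cover counting error only.

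Most GAGE promoters are alike, with a median identity of 99.7% over 55 pairs, 21 of them identical, and a lowest of 27.0%. Identity was counted base by base without gaps. A shifted start therefore lowers it even where the sequence is shared, as for GAGE1, whose promoter holds the GAGE12C sequence a few bases further on. GAGE promoters share a short stretch with some PAGE and XAGE genes. RefSeq promoters (GRCh38.p14, 250 bases before to 50 after the start) were at hand for 53 of the 86 members. The hexamer CACGTG, an E-box that reads the same on both strands, occurred in 16 of these 53 (30.2%), beside 7.26% of all 35116 promoters. Of the 16, 11 were GAGE copies, which are not independent, and the others were PAGE1, PAGE2B, PAGE4, PAGE5 and XAGE3. The windows below, 30 bases each on the gene's strand with CACGTG in capitals, show how far the likeness goes around that hexamer.
GAGE12C, chrX:49532188-49532217, plus strand: ggccccttcgccCACGTGaagaacgccagg
GAGE10, chrX:49303657-49303686, plus strand: agccgctttaccCACGTGgagaacgccagg
PAGE1, chrX:49695973-49696002, minus strand: ggccccttcgccCACGTGgagaacgccagg
XAGE3, chrX:52868074-52868103, minus strand: ggccccttttccCACGTGgtgaatgccctg
PAGE4, chrX:49829207-49829236, plus strand: ggaaagacaaccCACGTGacacacccccga
PAGE5, chrX:55220263-55220292, plus strand: gaaaccttcagtCACGTGgcaaatacccca
PAGE2B, chrX:55074981-55075010, plus strand: tgtctgttgctaCACGTGtctgttgttgcg
The GAGE12C window was the same in 10 GAGE genes. Of its 30 bases, PAGE1 matched 29, GAGE10 25 and XAGE3 23, while PAGE4 and PAGE5 matched 16 and PAGE2B 12. PAGE4 and PAGE5, which both hold the hexamer, differed widely in their values, given next. The hexamer GGGCGG was found on either strand in 13 member promoters (24.5%, beside 45% of all), and CCGGAA in 4 (7.55%, beside 17.2%). Each motif was searched on both strands by itself, so that a base could count for more than 1 motif. Member promoters held a median of 12 CG dinucleotides (range 1 to 21), against 14 over all promoters (quartiles 4 and 28). A match is a description of letters only.

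PAGE4, which encodes a disordered protein known from the prostate, had 0 counts in all 8 control libraries. With CM-1758 its counts were 298 and 311 in 253J (at least 99.8-fold higher), 59 and 66 in TCCSUP (at least 20.6-fold), 32 and 31 in RT112 (at least 12.2-fold) and 11 and 18 in J82 (at least 4.5-fold). Its highest level was in 253J (11.8 and 10.5 CPM), unlike the GAGE copies, which were highest in TCCSUP, and all 8 treated libraries were above all controls. DESeq2 fitted to J82 alone did not make the call there.

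The other PAGE genes differed from PAGE4 in where they were called. PAGE1 rose in TCCSUP from 23 and 20 counts to 456 and 560, a log2 fold change of 4.54 (SE 0.52, adjusted p = 1.05e-05), and in RT112 from 0 and 0 to 13 and 9, at least 4.27-fold. In 253J it had 0 and 0 counts against 0 and 7, and in J82 2 and 0 against 5 and 10, neither of which was called. PAGE3 had counts in TCCSUP with CM-1758 alone, 14 and 40 against 0 and 0, at least 8.98-fold higher. PAGE5 was expressed by TCCSUP cells without treatment, at much the same level as with it, and was not called. Its TCCSUP counts were 1356 and 1585 in control and 1315 and 1570 with CM-1758, a log2 fold change of -0.04 (SE 0.23, adjusted p = 0.903). In J82 PAGE5 had 7 and 4 counts against 18 and 7 (1.08, SE 0.57, adjusted p = 0.157), and in 253J and RT112 it had none. PAGE2/2B had 203 and 347 counts in TCCSUP control and 147 and 126 with CM-1758 (-1.03, SE 0.56, adjusted p = 0.141). Its counts elsewhere were 0 and 2 against 2 and 21 in 253J, 0 and 0 against 5 and 0 in J82, and 2 and 0 against 0 and 1 in RT112, with no call. The call of PAGE1 in RT112 was lost without either RT112 control library or RT112 CM-1758 replicate 1 (adjusted p from 0.0168 to 0.021), and that of PAGE3 in TCCSUP without either TCCSUP control library or TCCSUP CM-1758 replicate 1 (adjusted p from 0.0128 to 0.0353).

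The XAGE genes, which resemble PAGE and GAGE, responded mostly in TCCSUP. XAGE1A/1B rose there from 57 and 99 counts to 604 and 591, a log2 fold change of 2.92 (SE 0.41, adjusted p = 0.000141). XAGE3, which is known from placenta, rose from 6 and 6 to 100 and 88 (3.92, SE 0.62, adjusted p = 0.000674) and XAGE5 from 0 and 0 to 33 and 45, at least 12.9-fold. Neither had a count in any library of the other lines. XAGE2 rose from 3 and 0 to 58 and 76 counts, a ratio of 44 (14.7 to 216), and it was also called in RT112, with 0 and 0 against 24 and 18, at least 8.14-fold. In J82 XAGE2 had 0 and 0 counts against 2 and 0, and in 253J none. XAGE1A/1B had 0 and 0 counts against 4 and 8 in 253J and 4 and 0 in RT112, with no call, and none in J82. TCCSUP libraries did not overlap between the groups for any of the 4. Without either RT112 control library, XAGE2 in RT112 was no longer called (adjusted p from 0.0129 to 0.0138). The call of XAGE5 in TCCSUP ended without any 1 of the 4 TCCSUP libraries (adjusted p from 0.0109 to 0.0175). DESeq2 fitted to all lines together left XAGE2 and XAGE3 in TCCSUP without a call.

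The CT45A and CT47A genes are further tandem families on the X chromosome, and CT45A proteins have been studied as antigens in ovarian cancer. CT45A had 0 counts in both control libraries of 253J, J82 and RT112. With CM-1758 its counts were 105 and 133 in 253J (at least 38.7-fold higher), 4 and 6 in J82 (at least 1.55-fold) and 75 and 81 in RT112 (at least 30.2-fold). TCCSUP went from 5 and 5 to 187 and 234, a log2 fold change of 5.35 (SE 0.41, adjusted p = 7.11e-07). The treated level was lowest in J82. CT47A rose from 14 and 7 to 57 and 82 in 253J (2.68, SE 0.4, adjusted p = 9.38e-05) and from 26 and 37 to 389 and 357 in TCCSUP (3.54, SE 0.35, adjusted p = 3.11e-06). It rose from 0 and 0 to 17 and 29 in J82, at least 7.13-fold, and to 44 and 43 in RT112, at least 16.8-fold. 253J was the only one of the 3 quieter lines with CT47A reads before treatment, and no line's groups overlapped. The call of CT45A in J82 was lost without either J82 control library or J82 CM-1758 replicate 3 (adjusted p from 0.0193 to 0.0226).

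CTAG2, which encodes LAGE-1, was called in RT112 alone. Its counts there were 0 and 0 in control and 24 and 19 with CM-1758, at least 8.33-fold higher. TCCSUP had 33 and 15 counts in control and 87 and 100 with CM-1758, apart but short of the limits (1.93, SE 0.56, adjusted p = 0.0133). J82 had 0 and 0 against 0 and 2, and 253J none. CTAG1A/1B, the source of NY-ESO-1, did not pass the filter. Its highest counts were 11 and 4 in treated RT112 against 0 and 0, at least 2.92-fold, and 2 and 5 in treated 253J against 0 and 2, while J82 had none and TCCSUP 1 in all.

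Among the MAGEA genes, MAGEA1, whose product is a classic tumour antigen seen by T cells, changed by nearly the same amount in the lines that expressed it. RT112 had 34 and 32 counts in control and 284 and 221 with CM-1758 (3.15, SE 0.35, adjusted p = 1.82e-05). TCCSUP had 74 and 142 against 848 and 1071 (3.14, SE 0.32, adjusted p = 7.07e-06). J82 had 0 and 0 against 4 and 2, and 253J none with or without CM-1758.

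MAGEA3 and MAGEA6, which bind the ubiquitin ligase TRIM28, behaved otherwise. Their summed counts were 0 in all 4 libraries of 253J. They rose from 0 and 0 to 42 and 26 in J82, at least 10.7-fold, and from 6 and 14 to 191 and 125 in RT112 (4.18, SE 0.37, adjusted p = 3.24e-06). TCCSUP held far more without treatment, 1876 and 2125 counts or 74.3 and 81.4 CPM, and 1644 and 1584 counts with CM-1758, 61.6 and 62.4 CPM (-0.33, SE 0.23, adjusted p = 0.243). The treated TCCSUP libraries lay just below the controls, and this was not called. The promoters of the 2 genes are identical over 300 bases, and the stretch is printed to show how alike the pair is that had to be summed. The 250 bases before the start are given on the gene's strand, at chrX:152698544-152698793 (plus strand) for MAGEA3 and chrX:152769690-152769939 (minus strand) for MAGEA6, with the hexamer CCGGAA, the core of sites for ETS factors, in capitals from 113 bases before the start.
MAGEA3 and MAGEA6: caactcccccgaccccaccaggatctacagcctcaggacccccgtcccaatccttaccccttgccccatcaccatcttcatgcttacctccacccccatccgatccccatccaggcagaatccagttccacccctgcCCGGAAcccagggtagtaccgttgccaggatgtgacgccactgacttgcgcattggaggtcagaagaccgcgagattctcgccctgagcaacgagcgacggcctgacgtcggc

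The remaining MAGEA genes divided by line. MAGEA9/9B rose in TCCSUP from 8 and 10 counts to 267 and 278 (4.88, SE 0.49, adjusted p = 3.44e-06). In RT112 it was already present at 33 and 29 counts and reached 97 and 85, below the fold limit (1.77, SE 0.42, adjusted p = 0.00387). It had 4 and 0 counts against 2 and 6 in 253J and none in J82. MAGEA2/2B, another TRIM28 binder, rose from 8 and 0 to 90 and 71 in RT112 (4.51, SE 0.75, adjusted p = 0.000305) and from 6 and 16 to 82 and 63 in TCCSUP (2.69, SE 0.65, adjusted p = 0.0038). In 253J it had 0 and 0 counts against 4 and 5, and in J82 2 and 2 against 0 and 0, with no call. MAGEA8 was called in TCCSUP, with 8 and 20 counts against 108 and 92 (2.81, SE 0.66, adjusted p = 0.00506), and reached 3 counts at most elsewhere. MAGEA4, which binds the ubiquitin ligase RAD18, was called in 253J alone, with 0 and 0 counts against 29 and 35, at least 10.4-fold higher. It had 2 and 0 against 16 and 7 in RT112 and no more than 5 in any library of J82 or TCCSUP. MAGEA11, a coregulator of the androgen receptor, rose from 0 and 0 to 29 and 19 in 253J, at least 8.01-fold, and to 11 and 22 in RT112, at least 6.36-fold. TCCSUP held 237 and 290 counts of MAGEA11 in control and 594 and 698 with CM-1758 (1.28, SE 0.41, adjusted p = 0.0195), and J82 had 0 and 3 against 26 and 7 (ratio 10.3, 3.23 to 52.5, adjusted p = 0.0131), neither called. Without any 1 of the 4 253J libraries, MAGEA4 in 253J was no longer called (adjusted p from 0.0114 to 0.0216). The call of MAGEA11 in RT112 ended without either RT112 control library or RT112 CM-1758 replicate 2 (adjusted p from 0.0111 to 0.0122). Without TCCSUP control replicate 1 or either TCCSUP CM-1758 library, MAGEA2/2B in TCCSUP was no longer called (adjusted p from 0.0119 to 0.0436). The call of MAGEA8 in TCCSUP ended without any 1 of the 4 TCCSUP libraries (adjusted p from 0.0128 to 0.0445). MAGEA11 in 253J lost its call with the replicate number as a block, where the 253J effect rests on replicate 3 alone. MAGEA2/2B in RT112 lost its call with DESeq2 fitted to that line alone.

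MAGEC2, which also binds TRIM28, gave the clearest contrast between lines. It rose in J82 from 8 and 6 counts to 206 and 99 (4.34, SE 0.46, adjusted p = 6.39e-06) and in RT112 from 0 and 2 to 222 and 180, a ratio of 233 (64.2 to 1930). In 253J it went from 0 and 0 to 5 and 10, at least 2.4-fold higher. In TCCSUP its counts were 1434 and 1801 in control and 721 and 802 with CM-1758, or 56.8 and 69.0 CPM against 27.0 and 31.6 CPM. Both treated TCCSUP libraries were below both controls (-1.10, SE 0.28, adjusted p = 0.00458), which passed the adjusted p limit but not the fold limit. The adjusted p was 0.034 with library size alone (log2 fold change -0.79), and from 0.013 to 0.0486 without any 1 of the 4 TCCSUP libraries (-1.24 to -0.96). MAGEC1 had 43 and 81 counts in TCCSUP control and 91 and 112 with CM-1758 (0.70, SE 0.46, adjusted p = 0.221). It rose from 0 and 0 to 16 and 17 in RT112, at least 6.38-fold, and to 3 and 9 in 253J, at least 1.89-fold, and J82 had none. MAGEC3 did not pass the filter, with 12 and 6 counts in treated TCCSUP against 0 and 0, and 0 and 7 in treated 253J against 0 and 8. The call of MAGEC1 in 253J was lost without either 253J control library, 253J CM-1758 replicate 3, either RT112 CM-1758 library or either TCCSUP CM-1758 library (adjusted p from 0.0142 to 0.0641), and that of MAGEC2 in 253J without any 1 of the 4 253J libraries, either J82 control library, either RT112 CM-1758 library or either TCCSUP CM-1758 library (adjusted p from 0.0116 to 0.0576).

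MAGEB genes were low in all controls and differed in the lines where they appeared. MAGEB6 was called in each line, with 0 and 0 counts against 6 and 14 in 253J (at least 3.18-fold) and 59 and 40 in RT112 (at least 19.2-fold). It had 0 and 4 against 20 and 35 in J82 (3.60, SE 0.78, adjusted p = 0.00225) and 7 and 7 against 103 and 92 in TCCSUP (3.76, SE 0.61, adjusted p = 0.000197). MAGEB10 was highest in treated TCCSUP, at 458 and 373 counts against 4 and 8 (6.06, SE 0.69, adjusted p = 2.72e-05), the largest fitted log2 fold change among the calls with over 3 control counts. It also rose in 253J, from 0 and 0 to 25 and 24, at least 8.05-fold, had 0 and 0 against 0 and 11 in RT112, and had none in J82. MAGEB2 was led by J82 and 253J rather than by TCCSUP. It went from 13 and 8 to 64 and 56 in J82 (2.41, SE 0.49, adjusted p = 0.00177), from 0 and 0 to 41 and 50 in 253J (at least 14.8-fold) and from 0 and 0 to 13 and 13 in TCCSUP (at least 4.27-fold). RT112 had 3 and 3 treated counts of MAGEB2 against 0 and 0. MAGEB3 was called in J82 alone, with 6 and 5 against 74 and 57 (3.45, SE 0.78, adjusted p = 0.00349). Its TCCSUP counts were 4 and 0 against 11 and 8 (2.16, SE 1, adjusted p = 0.0895), and no other library passed 2.

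MAGEB17 was called in TCCSUP, with 4 and 0 counts against 34 and 35 (4.01, SE 1.03, adjusted p = 0.00478). It had 5 and 13 against 0 and 6 in 253J (-1.62, SE 1.06, adjusted p = 0.224), 7 and 5 against 10 and 4 in J82 (0.13, SE 0.99, adjusted p = 0.982) and 0 and 0 against 4 and 4 in RT112. MAGEB1 stayed under 1 CPM in every group mean and is given because it was called, a choice made after its values were seen. Its TCCSUP counts were 0 and 0 against 24 and 25, at least 8.06-fold higher. The low members MAGEB4, MAGEB5, MAGEB6B, MAGEB16 and MAGEB18 were never called, and the highest count among them was 12. Without either 253J control library, MAGEB10 in 253J was no longer called (adjusted p from 0.0107 to 0.0121). The call of MAGEB6 in 253J ended without either 253J control library or 253J CM-1758 replicate 3 (adjusted p from 0.0199 to 0.0238). Without J82 control replicate 3, MAGEB2 in J82 was no longer called (adjusted p = 0.0202). The call of MAGEB3 in J82 ended without any 1 of the 4 J82 libraries (adjusted p from 0.0114 to 0.0286). Without J82 control replicate 1 or J82 CM-1758 replicate 3, MAGEB6 in J82 was no longer called (adjusted p from 0.0147 to 0.0167). The call of MAGEB17 in TCCSUP ended without TCCSUP control replicate 2 or either TCCSUP CM-1758 library (adjusted p from 0.0202 to 0.0502). Without any 1 of the 4 TCCSUP libraries, MAGEB1 in TCCSUP was no longer called (adjusted p from 0.0213 to 0.0365). DESeq2 fitted to all lines together also left MAGEB10 without a call in both 253J and TCCSUP.

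SSX4/4B, a rarer fusion partner in synovial sarcoma than SSX1 and SSX2, was called in each line. Its counts were 0 and 0 against 11 and 7 in 253J (at least 3.01-fold), 0 and 0 against 16 and 32 in J82 (at least 7.43-fold) and 3 and 0 against 34 and 48 in RT112, a ratio of 31.7 (10.5 to 157). TCCSUP went from 9 and 6 to 220 and 258 (4.95, SE 0.55, adjusted p = 8.26e-06). SSX1 rose from 0 and 0 in each of the 3 quieter lines, to 24 and 19 in 253J (at least 7.12-fold), 39 and 84 in J82 (at least 19-fold) and 20 and 22 in RT112 (at least 8.12-fold). TCCSUP expressed SSX1 before treatment, at 250 and 276 counts, and had 556 and 516 with CM-1758, short of both limits (1.01, SE 0.3, adjusted p = 0.0146). SSX2/2B, in contrast, was called in TCCSUP, from 147 and 169 to 814 and 619 (2.16, SE 0.49, adjusted p = 0.00227), and in RT112, from 0 and 0 to 13 and 20, at least 6.37-fold. It had 3 and 4 against 0 and 10 in 253J (0.45, SE 1.1, adjusted p = 0.794) and 0 and 0 against 0 and 8 in J82. SSX3 rose in TCCSUP from 22 and 28 to 300 and 256 (3.45, SE 0.5, adjusted p = 0.000163) and in RT112 from 0 and 0 to 14 and 4, at least 3.51-fold, and elsewhere had 2 counts in 1 library.

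SSX5 was called in TCCSUP, with 0 and 0 counts against 43 and 36, at least 13-fold higher, and had no more than 4 in a library elsewhere. The pseudogene SSX6P rose in TCCSUP from 0 and 4 to 82 and 79 (5.23, SE 0.92, adjusted p = 0.000383) and in 253J from 0 and 0 to 13 and 11, at least 3.96-fold. It had 0 and 2 against 8 and 12 in RT112 (ratio 11.6, 2.82 to 102, adjusted p = 0.0298) and 3 and 0 in treated J82. The pseudogene SSX8P rose from 33 and 22 to 118 and 114 in TCCSUP (2.05, SE 0.53, adjusted p = 0.00848), close to the fold limit of 2, and had 2 counts in all elsewhere. SSX9P, like MAGEB1 under 1 CPM and given after its call was seen, had 0 and 0 against 20 and 31 in TCCSUP, at least 8.43-fold, and none elsewhere. SSX7 did not pass the filter, with 8 and 5 counts in treated TCCSUP against 0 and 0. The call of SSX4/4B in 253J was lost without either 253J control library or 253J CM-1758 replicate 1 (adjusted p from 0.0178 to 0.0221), and that of SSX6P in 253J without any 1 of the 4 253J libraries or either TCCSUP CM-1758 library (adjusted p from 0.0115 to 0.0355). The call of SSX2/2B in RT112 ended without either RT112 control library or RT112 CM-1758 replicate 2 (adjusted p from 0.0181 to 0.022), and that of SSX3 in RT112 without either RT112 control library or RT112 CM-1758 replicate 1 (adjusted p from 0.0239 to 0.0368). The call of SSX2/2B in TCCSUP ended without either TCCSUP control library or TCCSUP CM-1758 replicate 1 (adjusted p from 0.0189 to 0.0255), and that of SSX8P in TCCSUP without any 1 of the 4 TCCSUP libraries (adjusted p from 0.0277 to 0.0707). The call of SSX9P in TCCSUP ended without any 1 of the 4 TCCSUP libraries (adjusted p from 0.0182 to 0.034).

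The members at the floor complete the list. MAGEA5 and MAGEA7P had 0 counts in all 16 libraries. MAGEA10 reached 3 counts, and MAGEA10-MAGEA5 had 3 counts in 1 control library of RT112 and none elsewhere. In all, 7 of the 86 members had at most 3 counts in every library, a level at which a change was not detectable at this depth.

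**Figure D4:**
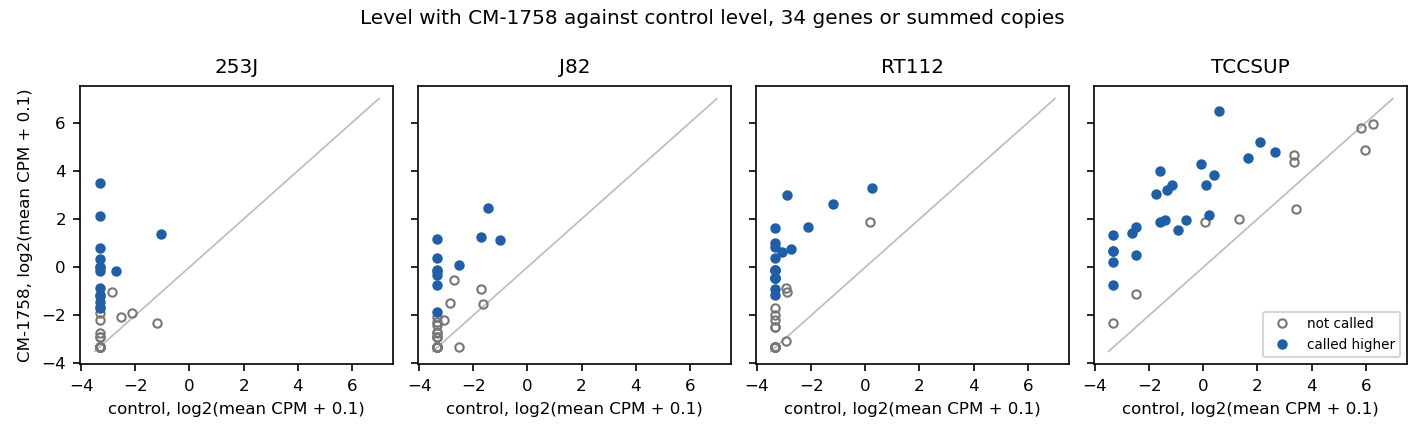
Mean level with CM-1758 against mean control level for the 34 genes or copy groups, both as log2(mean CPM + 0.1), with a panel for each line, filled points for those called higher and the line of equal levels. The points of 253J, J82 and RT112 crowd at the left edge and rise from it, while in TCCSUP they spread along the axis and MAGEC2 lies below the line of equal levels.

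Family sums showed the same division in TCCSUP. The ratio of treated to control means there was 64.7 for GAGE, 41.6 for CT45A, 32.7 for MAGEB, 11.7 for CT47A, 9.23 for XAGE, 4.16 for SSX and 3.85 for CTAG. It was 1.51 for MAGEA, 1.22 for PAGE and 0.514 for MAGEC. The 3 families with the smallest ratios were those whose control sums were highest, at 87.4 and 99.7 CPM for MAGEA, 62.6 and 74.7 for PAGE and 58.4 and 72.1 for MAGEC. Control level is also the denominator of the ratio. Most of each control mean came from 1 gene or copy group. These were MAGEA3/6 (77.8 of 93.5 CPM), PAGE5 (57.2 of 68.7) and MAGEC2 (62.9 of 65.3), so the 3 ratios mainly describe them and not the other members. In the other lines the MAGEA sum had ratios of 34 in 253J (4 and 0 control counts), 15 in J82 (2 and 5) and 8.82 in RT112 (86 and 75). The MAGEC sum had ratios of 3.9 in 253J (0 and 8 control counts) and 20.7 in J82 (8 and 6). In 253J and J82 these ratios rest on few control reads, and their sizes are uncertain.

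The control cells were compared with each other in the same way. The control level of each line was set against the mean of the fitted log2 levels of the other 3. Lines at 0 counts pull this mean down, so a call does not make a line the highest. Members called higher in this way numbered 38 in TCCSUP (44.2% of 86), beside 10.5% of all tested genes. In RT112 they were 3 (MAGEA1, MAGEA9 and MAGEA9B), beside 10.3%, and in J82 2 (MAGEB2 and MAGEB3), beside 8.4%. In 253J edgeR called 0, beside 11.3%, where 6 members had an unadjusted p under 0.05 and DESeq2 called 0. With copies summed, CT47A was called higher in 253J control (log2 difference 3.74, adjusted p = 0.000474). Its mean level there, 0.388 CPM, was nonetheless below the 1.22 CPM of TCCSUP control. MAGEA1 in RT112 control, at 1.1 CPM, was likewise below TCCSUP control, at 4.18 CPM. The J82 count became 1 without any 1 of the 4 J82 libraries, the 253J or RT112 control libraries or the TCCSUP CM-1758 libraries, and the 253J count became 1 without TCCSUP control replicate 1. Of the 48 genes or copy groups, 24 had over 3 counts in both control libraries of TCCSUP, against 2 in 253J, 5 in J82 and 3 in RT112, and 18 had them in TCCSUP alone. With CM-1758 these numbers were 39 in TCCSUP, 15 in 253J, 15 in J82 and 24 in RT112. The matching shares over all genes were not computed.

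The response itself was compared between lines by an interaction test in edgeR. It differed for 8 of the 69 members tested and for 8 of 37 genes or copy groups tested, beside 36.6% of all tested genes and 36.6% of all features with copies summed, so the members' share lay below the background. The 8 were MAGEC2 (adjusted p = 8.61e-07), MAGEA3/6 (1.62e-05), SSX1 (0.00011), CT47A (0.00364), MAGEA9/9B (0.00525), MAGEB2 (0.0069), MAGEC1 (0.0095) and MAGEA11 (0.00953). For MAGEC2, MAGEA3/6, SSX1, MAGEC1 and MAGEA11, TCCSUP was the line with the highest control level and the smallest fitted rise among lines that had reads. For MAGEA9/9B the rise was larger in TCCSUP than in RT112. For MAGEB2 the fitted rise was smallest in J82, the only line with control counts, although its treated level was highest there. For CT47A the fitted rise was smallest in 253J (2.68), then TCCSUP (3.54), and the other lines had 0 control counts. The count of 8 fell to between 4 and 8 as single libraries were left out, for members and for genes with copies summed, with 4 left without TCCSUP CM-1758 replicate 1, TCCSUP CM-1758 replicate 2 or RT112 CM-1758 replicate 2, 4 or 5 without RT112 control replicate 2, and 5 without either 253J control library, RT112 control replicate 1, RT112 CM-1758 replicate 1 or TCCSUP control replicate 2. Without either 253J CM-1758 library, 5 members and 6 genes with copies summed were left. The test has little power for genes with few reads in several lines, and a p above the limit does not show equal responses.

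**Figure D5:**
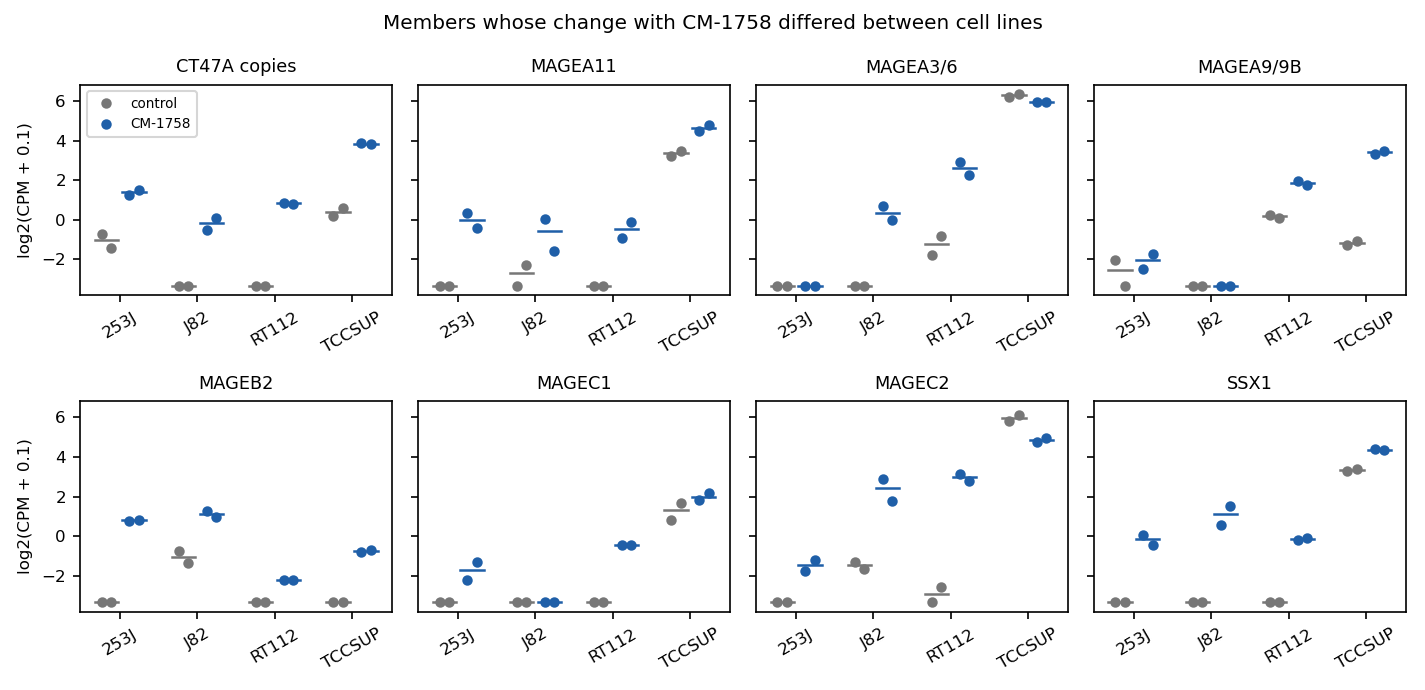
Level of the 8 genes or copy groups whose response differed between lines, as log2(CPM + 0.1), with a point for each library and a bar for each group mean. In the MAGEC2 panel the treated points stand above the controls in 253J, J82 and RT112 and below them in TCCSUP.

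In the main fit, other genes of the X chromosome were called higher at shares below those of the families in each line. Of 774 such genes tested, 19.4% were called higher in TCCSUP, 14% in RT112, 9.95% in J82 and 12% in 253J, and 2.58%, 1.42%, 0.388% and 2.45% were called lower. The shares of X genes and of all genes were not computed in the fits that lowered the families' counts in 253J and J82. Whether the difference holds there is not known. Of the 15 genes matched by letters only, 8 were tested and 0 were called lower. CTAGE6 alone among them was called higher in 253J, from 5 and 6 counts to 25 and 24, and CTAGE3P alone in RT112, from 4 and 0 to 21 and 33.

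The type II MAGE genes, which share the MAGE homology domain but are expressed in many tissues, were called in both directions. Of 12 tested, 4 were called higher in J82 beside 8.81% of all tested genes, 4 in RT112 beside 11.4%, 2 in TCCSUP beside 14.2% and 0 in 253J beside 9.43%, and 1 was called lower, in TCCSUP, beside 3.31%. In 253J, 2 had an unadjusted p under 0.05 toward higher and 3 toward lower, and DESeq2 called 0 higher. In the order 253J, J82, RT112 and TCCSUP, their median log2 fold changes were 0.00, 1.47, 1.48 and 1.03, beside 0.10, 0.047, 0.119 and 0.20 over all tested genes. MAGED2 was the one called lower, from 3990 and 4488 counts to 1045 and 1008 in TCCSUP (-2.07, SE 0.17). MAGEH1 rose in J82 from 112 and 69 to 718 and 660 (2.83, SE 0.2). MAGED4 and MAGED4B, near-identical copies, rose in J82 by 3.19 and 3.14 and in RT112 by 5.08 and 5.20 on the log2 scale. TRO rose from 0 and 0 to 10 and 11 in J82 and to 8 and 15 in RT112, and from 8 and 3 to 26 and 56 in TCCSUP, while 253J held it at 64.8 and 74.2 CPM without treatment.

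Testis and germ-cell antigens outside the 10 families were read from a list of 50, of which 43 were tested. TCCSUP had 21 called higher beside 14.2% of all tested genes, RT112 18 beside 11.4%, 253J 10 beside 9.43% and J82 5 beside 8.81%, the last a share near the background. None was called lower by edgeR, with an unadjusted p under 0.05 for 2 in each line. Their median log2 fold changes in the same order were 3.34, 3.76, 3.04 and 0.62. Such medians take in genes with almost no reads in a line, where a few counts give a large fitted value, so they do not measure a typical rise. In 253J, 15 of the 49 genes with a row had at most 3 counts in every library. TEX15, a germ-cell gene needed for meiosis, rose in TCCSUP from 0 and 4 counts to 629 and 536 (8.08, SE 0.41) and in RT112 from 0 and 0 to 90 and 94, at least 35.6-fold. PRAME, an antigen of melanoma and leukaemia, rose in RT112 from 0 and 3 to 70 and 68, a ratio of 53.4 (17.9 to 262), and in TCCSUP from 2 and 3 to 229 and 192, a ratio of 83 (35.3 to 257). In 253J, which expressed PRAME before treatment, its counts were 3165 and 2997 against 1625 and 1793 (-0.88, adjusted p = 0.000749), not past the fold limit. SPANXA1 and SPANXA2, near-identical sperm genes, rose from 0 and 0 in RT112 to 14 and 15 and to 15 and 15 counts. TCCSUP held 2056 and 2730 counts of SPANXA1 in control and 2589 and 2287 with CM-1758 (0.01, SE 0.15, adjusted p = 0.99). IL13RA2 was called in 253J, from 22 and 7 to 127 and 116 (3.04), and TCCSUP held 8192 and 6979 counts of it in control against 4941 and 5155 (-0.61), with no call.

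Genes that act with or on these families gave few calls, although many had an unadjusted p under 0.05 in edgeR, more of them toward a lower level. Of 8 partners of MAGE proteins, TRIM31 was called higher in 253J, from 0 and 0 counts to 27 and 51, beside 9.43% of all tested genes. No partner was called in J82 or TCCSUP by edgeR, and DESeq2 called 0 higher. An unadjusted p under 0.05 was seen there for 6 and 5 of the 8, of which 5 and 4 were toward lower. Of 23 repressors and DNA methylation enzymes, DNMT3B (-2.62, SE 0.13) and UHRF1, which guides DNA methylation after replication (-2.43, SE 0.22), were called lower in 253J. Of all tested genes, 3.5% were called lower there. None of the 23 was called higher in any line, nor lower in J82, RT112 or TCCSUP, and DESeq2 called 0 higher. In the order 253J, J82, RT112 and TCCSUP, 14, 9, 10 and 9 of the 23 had an unadjusted p under 0.05 toward lower. Toward higher it was 5, 3, 4 and 6. Their median log2 fold changes were -0.56, -0.18, -0.26 and -0.21, beside 0.10, 0.047, 0.119 and 0.20 over all tested genes. The part of these genes in the families' change was not tested.

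Markers were read for the identity of the cells. The epithelial keratins KRT8, KRT18 and KRT19 were present in all lines, whereas the uroplakins UPK1A, UPK1B, UPK2 and UPK3A, which define the urothelial surface, had 0 counts in 253J control. Some urothelial markers moved with CM-1758. KRT18 was called lower in TCCSUP (-2.57, SE 0.24), CDH1 lower in 253J (-2.80, SE 0.22) and higher in J82 (2.77, SE 0.24), and KRT20 was called higher in 253J, J82 and TCCSUP. In RT112, which had UPK1A and UPK1B reads before treatment, both were called lower, UPK1A from 149 and 154 counts to 7 and 6 and UPK1B from 39715 and 44765 to 8810 and 9402. UPK1A was called higher in 253J (0 and 0 counts against 6 and 26) and UPK1B in J82 (0 and 0 against 4 and 18). TP63, a factor of basal epithelial cells, was called higher in 253J (6.35, SE 0.5) and TCCSUP (2.10, SE 0.39). Of 6 germ-cell and Sertoli markers, DDX4 was called higher in 253J (0 and 0 counts against 12 and 12) and TCCSUP (0 and 0 against 35 and 27), SOX9 higher in RT112 and POU5F1 lower in 253J. Their summed level went from 29.2 and 29 CPM to 21.1 and 21.0 in 253J, from 7.60 and 4.18 to 7.55 and 5.15 in J82, from 11.0 and 11.6 to 53.0 and 53.0 in RT112, and from 21.1 and 20.7 to 27.0 and 28.4 in TCCSUP. Of 7 leukocyte markers, MS4A1 had 0 counts in every library, PTPRC was called lower in TCCSUP, and 2 were called higher in RT112 (CD14 and ITGAM) and in TCCSUP (CD3D and ITGAM). Their sum went from 20.3 and 20.9 CPM to 13.4 and 12.7 in TCCSUP and from 0.0654 and 0.712 to 4.89 and 4.31 in RT112, and stayed under 7 CPM in 253J and J82. Of 5 endothelial markers, TEK fell in TCCSUP from 5707 and 5031 counts to 338 and 355, which took the sum from 227 and 194 CPM to 18.3 and 20.3, VWF and KDR were called higher in TCCSUP, and VWF in 253J. The part of these markers in the families' change was not tested.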

How the data were processed

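Raw read counts per gene were deposited by the authors for 16 libraries. Submitters' processing notes name HISAT2, StringTie and GRCh37, with no versions, and how copies or strands were counted is not given in the sources used here. Every library was mapped to its line and treatment by its labels and to its replicate number by its title, and the tested values were the deposited counts, with CPM computed from library totals scaled by TMM factors. Counts were fitted in edgeR 4.0.16 (R 4.3.3) with its quasi-likelihood test, 1 model of 8 groups with 8 residual degrees of freedom, filterByExpr, TMM factors and Benjamini-Hochberg adjustment over all tested genes within each contrast. The common biological coefficient of variation was 0.153. A call needed an adjusted p under 0.01 together with a log2 fold change past 2 or -2. All adjusted p-values are from edgeR unless DESeq2 1.42.0 is named, and standard errors were taken as the log2 fold change over the root of the F statistic. The fit was repeated with near-identical copies summed and tested on simulated counts.

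A fold against 2 control libraries at 0 was computed as a lower bound against 3 counts per library. Where the highest library count was 1 to 3 in 1 group and above 3 in the other, the ratio and its exact 95% counting interval were computed. Genes or copy groups with a mean of 1 CPM or more in at least 1 group are named with every library's count, and of each other list up to 5 called genes with the highest group mean. Members, lists and motifs were chosen with earlier results of these data known. CSAG1, CSAG2 and CSAG3, neighbours of MAGEA genes, and SPANXC were not analysed here. A gene of the list of MAGE partners is not reported here. Promoters came from the RefSeq tables of GRCh38.p14, while the counts rest on GRCh37, so no coordinate was carried between them. Alternatives were RLE factors, library size alone, abundant small noncoding RNA genes left out, other filters on low counts, counts thinned to the smallest library, the replicate number as a block, DESeq2, edgeR within each line, other limits and each library left out. Replicate pairs differed by more than sampling noise (chi-square over degrees of freedom 9.51 to 57.4).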

Additional observations from a re-analysis of the deposited data

Results flagged for a closer look

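For 8 genes or copy groups, the interaction test in edgeR found that the change with CM-1758 differed between the 4 cell lines. The adjusted p was 8.61e-07 for MAGEC2, 1.62e-05 for MAGEA3/6, 0.00011 for SSX1, 0.00364 for the CT47A copies, 0.00525 for MAGEA9/9B, 0.0069 for MAGEB2, 0.0095 for MAGEC1 and 0.00953 for MAGEA11. MAGEC2 had fitted log2 fold changes of 4.34 in J82 and -1.10 in TCCSUP, and MAGEA3/6 of 4.18 in RT112 and -0.33 in TCCSUP, both from 2 libraries per group. Of the 8, MAGEC2 alone had adjusted p-values under 0.01 in opposite directions in different lines (TCCSUP against the other 3), although that of TCCSUP reached 0.0486 when 1 of its libraries was left out and 0.034 with library size alone. Groups of 2 libraries were too small to be searched for libraries that stand apart.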

How the results depend on the processing

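Of 232 recomputed counts that left no library out, 214 stayed within 1.5 times their value or stayed at 0. The other 18 did not, and the cause was not tested. The counts of members and copy-summed genes called lower were all 0 in the main fit, and those that stayed at 0 are among the 214. Members higher in J82 control cells went from 2 to 1 with RLE factors, library size alone, thinned counts and DESeq2 over all lines. Library size alone raised every log2 fold change, by 0.31 in TCCSUP, 0.27 in 253J and 0.15 in both RT112 and J82. Thinned counts left 5 of 8 copy-summed responses that differed between lines. DESeq2 over all lines called 15 in place of 26 copy-summed genes higher in TCCSUP, and fits of each line alone called 5 (DESeq2) and 6 (edgeR) members higher in J82 in place of 14. At an adjusted p under 0.05 with no fold limit, 2 members and 1 copy-summed gene were lower in TCCSUP in place of 0. The count of members moving to at least 10 counts became 13 in TCCSUP where both controls had to be at 0, and 6 in 253J, 1 in J82 and 5 in RT112 where 20 treated counts were required.

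Same-numbered control and treated libraries had deviations correlated at 0.179 in 253J (which shares only number 3), 0.462 in J82, 0.117 in RT112 and 0.0757 in TCCSUP, so the numbers were not taken as pairs. With the replicate number as a block, fewer than 18 members and fewer than 14 copy-summed genes were higher in 253J. That line shares only number 3, so its other libraries add nothing to its effect in this fit. In the same fit, 4 in place of 8 responses differed between lines for members and copy-summed genes alike.

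Over fits that each left out 1 library, copy-summed genes higher ran from 7 to 14 in 253J, 8 to 11 in J82, 13 to 18 in RT112 and 17 to 26 in TCCSUP. Members higher ran from 6 to 19, 8 to 14, 19 to 31 and 39 to 53, and members higher in control cells from 0 to 1, 1 to 2, 3 to 3 and 29 to 37. Differing responses ran from 4 to 8, and members moving to at least 10 counts from 12 to 16, 4 to 7, 17 to 23 and 25 to 30. Of the 69 calls of a gene or copy group in a line, 44 held whichever library was left out and 38 held in every alternative run. Changes with no call turned sign for PAGE5 in TCCSUP (0.27 with library size alone, 0.04 without control replicate 2, 0.11 without CM-1758 replicate 1, with a range of -0.21 to 0.11 over left-out libraries), MAGEB17 in J82 (-0.11 without control replicate 3, -0.63 without CM-1758 replicate 1, range -0.63 to 0.67) and SSX2/2B in 253J (-4.87 without CM-1758 replicate 3, range -4.87 to 1.34). With 2 libraries a group and few counts, an absent call does not show that a level stayed the same.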
